A study of Homo sapiens with 9 samples.

Results

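The SR proteins, their CLK kinases and the hnRNPs were followed in Jurkat cells after electrical pulses and after heat shock. The 38 genes were a list of family members, found on the arrays by gene symbol, and cover 12 SR proteins (SRSF1 to SRSF12), 2 TRA2 proteins, 4 CLK kinases and 20 hnRNPs, out of 19775 genes that the arrays measured with a probe set of their own. In all 35 of the 38 were measured. SRSF2, SRSF9 and HNRNPH2 lay only on probe sets that the platform annotation assigns to several genes, and no value is given for them. Each gene was represented by its brightest probe set among those assigned to it alone, by mean log2 signal on the 9 arrays. Probe sets shared with other genes were left out, although for HNRNPA1 and HNRNPA3 some of these were brighter. The other 97 of the 132 probe sets of these genes are called further probe sets here, and 4 genes had none.

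Jurkat is an established line of human T lymphocytes, first grown from a leukaemia. The 9 arrays were 3 of cells exposed to nanosecond electrical pulses (nsEP), 3 of heat shocked cells and 3 of sham exposed cells, with RNA taken 4 h after the exposure in every group. An nsEP sample received 100 pulses, each 10 ns long, at a field of 150 kV/cm in a cuvette. All 3 groups were unmodified cells of 1 line in the same medium, and the labels call the 3 samples of a group biological replicates.

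SR proteins bind exonic sequences through RNA recognition motifs and recruit the spliceosome through a domain rich in arginine and serine. CLK kinases phosphorylate the serines of that domain in the nucleus, which releases SR proteins from storage in nuclear speckles, and hnRNPs coat nascent RNA and often act against SR proteins at the same exons. In heat shocked cells splicing is known to slow, and SRSF10 is known to lose its phosphate. Many SR, TRA2 and hnRNP genes control their own amount by splicing in an exon that carries a stop codon, and such transcripts are removed by nonsense-mediated decay. A gene of this kind can therefore change the form of its transcript with little change in the total.

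Promoter sequences are shown for 3 genes whose probe sets moved unequally after heat shock and for HNRNPA2B1, which carries the letters of a heat shock element. They are the 250 bases before the annotated start, from RefSeq on GRCh38.p14, 5′ to 3′ on the strand of the gene. Capitals mark GAANNTTC or TTCNNGAA, the inverted repeats bound by heat shock factor 1, and TGACGT on either strand (ACGTCA on the other), part of the site bound by the CREB and ATF family.
SRSF1 (chr17:58007247-58007496, minus strand): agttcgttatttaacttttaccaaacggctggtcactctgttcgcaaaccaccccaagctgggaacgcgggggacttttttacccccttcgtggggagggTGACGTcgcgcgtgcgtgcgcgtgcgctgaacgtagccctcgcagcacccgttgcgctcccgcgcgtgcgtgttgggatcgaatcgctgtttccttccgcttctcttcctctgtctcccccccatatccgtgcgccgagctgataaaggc
SRSF3 (chr6:36594112-36594361, plus strand): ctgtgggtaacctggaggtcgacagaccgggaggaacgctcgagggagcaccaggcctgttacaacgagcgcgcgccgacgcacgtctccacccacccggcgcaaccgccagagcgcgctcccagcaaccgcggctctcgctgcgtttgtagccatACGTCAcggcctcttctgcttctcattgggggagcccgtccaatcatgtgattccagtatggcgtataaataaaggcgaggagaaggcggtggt
TRA2B (chr3:185938015-185938264, minus strand): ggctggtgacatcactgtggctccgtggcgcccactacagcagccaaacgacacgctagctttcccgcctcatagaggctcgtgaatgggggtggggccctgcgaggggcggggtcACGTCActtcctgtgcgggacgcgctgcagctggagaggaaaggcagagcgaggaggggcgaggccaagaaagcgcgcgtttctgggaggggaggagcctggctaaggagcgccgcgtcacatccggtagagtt
HNRNPA2B1 (chr7:26200747-26200996, minus strand): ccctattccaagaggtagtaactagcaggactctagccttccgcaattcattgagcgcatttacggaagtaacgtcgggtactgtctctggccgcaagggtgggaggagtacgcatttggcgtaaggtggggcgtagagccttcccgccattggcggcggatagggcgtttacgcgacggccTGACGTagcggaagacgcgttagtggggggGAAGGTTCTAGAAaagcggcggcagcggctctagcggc
The heat shock letters were in 4 of the 51 promoter windows found for 35 of the 38 genes (7.84%), which belonged to SRSF8, HNRNPA2B1 and HNRNPC, against 11.6% of all 35116 windows and 7 of 13 windows of heat shock chaperone genes. TGACGT was searched after the sequences had been seen. It was in 8 of the 51 windows (15.7%), against 7.1% of all windows. Besides the genes shown, these belonged to SRSF5, CLK4, HNRNPK and HNRNPH2. SRSF5, CLK4 and HNRNPK had no called probe set, and HNRNPH2 was not measured. SRSF7, which had a called probe set, lacked the letters. Both repeats in HNRNPA2B1 overlap and form 1 run of alternating GAA and TTC units, 38 bases before the start. Heat shock left HNRNPA2B1 with a log2 ratio of 0.28 (SE 0.18) over sham, which was not called. A match is a description of letters only, and no window for HNRNPA1, TRA2A or SRSF2 was in the table.

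Signals are log2 MAS5 values, a summary of the probes of a probe set that is scaled to the same trimmed mean on every array, so a difference of 1 is a factor of 2. Group differences were tested with limma over 54613 probe sets and called at an adjusted p under 0.05 (Benjamini-Hochberg). Array medians were 6.25 to 6.43 in nsEP, 6.65 to 6.72 in heat shock and 6.32 to 6.42 in sham. The 28S ribosomal RNA control read 14.14 to 14.37 in nsEP, 15.42 to 15.62 in heat shock and 12.49 to 12.63 in sham. The ACTB 3′ minus 5′ difference, a sign of RNA integrity, was highest on the arrays of nsEP replicate 3 (1.24) and sham replicate 1 (1.26) against 0.31 to 0.79 on the others, and nsEP replicate 3 stood apart from the other 8 arrays on the second principal component (14.2% of the variance). Heat shock chaperones matched the heat shock label. HSPA6, an inducible chaperone, was 8.77 higher in log2 after heat shock than in sham, and DNAJB1 was 3.14 higher. FOS, an immediate early gene, was 7.27 higher after nsEP than in sham and 9.20 higher after heat shock. It therefore sets both exposures apart from sham and does not mark nsEP alone. All 11 T cell markers were in the brightest quartile of probe sets, with CD2 (-1.79) and CD28 (-1.01) lower after heat shock than in sham. None of 9 myeloid and none of 7 other organ markers was in that quartile, and 1 of 7 B cell markers was (CD79A). The myeloid marker CD14, in the dimmest quartile, was 4.78 higher after heat shock.

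At the brightest probe set none of the 35 genes was called between heat shock and sham, where 5.71% of all 19775 genes were called. An unadjusted p under 0.05 was found for 6 of the 35 (17.1%, all genes 22%), and the t-test named in the methods, adjusted in the same way, also called none. Their median log2 ratio was 0.14, the same as the 0.14 of all genes, and the ratios ran between -0.36 for SRSF10, a splicing repressor known to lose phosphate in heat shock, and 0.96 for the kinase CLK1. Shares and medians over all genes at the brightest probe set, here and below, are not matched on signal. Of the 35 genes 34 lay in the brightest quartile of all probe sets, against 7732 of the 19775 genes. The 3 heat shock arrays did not overlap the 3 sham arrays for 12 genes (34.3%, all genes 31.2%), 11 of them higher and SRSF8 lower. The 95% confidence interval of the ratio stayed within 1 log2 unit of 0, a factor of 2, for 33 of the 35. The exceptions were SRSF12, whose mean signal of 5.26 was under the median of all probe sets (6.33), and CLK1. These intervals hold for the trimmed-mean scaling alone. Scaling to the poly-A spike-in RNAs shifted every heat shock ratio by -1.01.

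Of the 35 genes CLK1 and CLK3 had the highest ratios to sham, after either exposure. CLK1 read 10.86, 11.15 and 10.22 in nsEP, 11.30, 10.77 and 11.47 in heat shock, and 10.09, 10.58 and 10.00 in sham. Its heat shock arrays were all above its sham arrays, and the nsEP arrays lay across both. The log2 ratio of heat shock over sham was 0.96 (SE 0.25, adjusted p = 0.0577) and that of nsEP over sham 0.52 (SE 0.25, adjusted p = 0.743). CLK1 was called in 5 of 18 alternative fits, among them those without nsEP replicate 3 (adjusted p = 0.0219) or heat shock replicate 2 (adjusted p = 0.0434). Scaling the arrays to their poly-A spike-in RNAs in place of the trimmed mean lowered every heat shock ratio by 1.01 and turned that of CLK1 to -0.06.

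CLK3 read 9.69, 9.48 and 9.64 in nsEP, 9.29, 9.56 and 9.65 in heat shock, and 8.68, 9.28 and 8.81 in sham. Both exposures lay above every sham array, by 0.68 for nsEP (SE 0.19, adjusted p = 0.409) and by 0.58 for heat shock (SE 0.19, adjusted p = 0.129), and neither was called. CLK4 read 10.15, 10.46 and 10.02 in nsEP, 9.81, 9.63 and 10.08 in heat shock, and 9.76, 9.85 and 9.86 in sham. Its nsEP arrays were above every sham array (log2 ratio 0.39, SE 0.17, adjusted p = 0.687), and its heat shock arrays overlapped sham. CLK2 read 9.73, 10.31 and 10.32 in nsEP, 10.14, 10.09 and 10.21 in heat shock, and 9.88, 9.85 and 11.41 in sham. Sham replicate 3 was the high value of CLK2, and the groups overlapped.

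**Figure D1:**
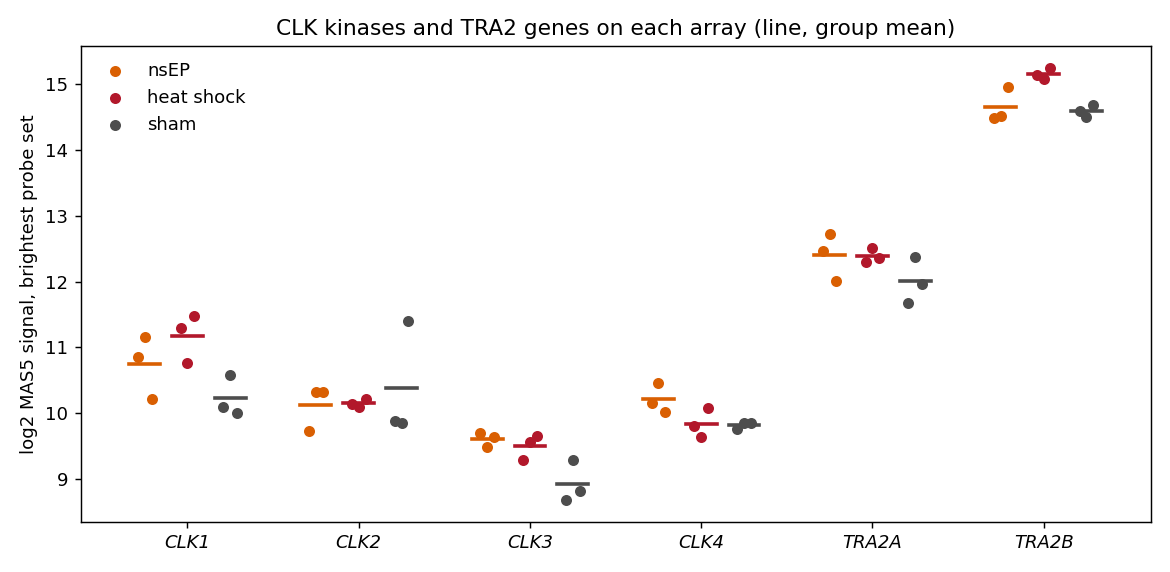
Log2 MAS5 signal of the brightest probe set of each CLK and TRA2 gene on every array (points, 3 per group) with the group mean (line), in the order nsEP, heat shock, sham. CLK1 and TRA2B lie higher in all 3 heat shock arrays than in all 3 sham arrays, CLK3 lies higher in both exposures, and CLK2 has 1 high sham array at 11.41.

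The TRA2 proteins activate exons with purine-rich enhancers. TRA2B read 15.14, 15.09 and 15.26 in heat shock, against 14.59, 14.51 and 14.69 in sham, a log2 ratio of 0.57 (SE 0.17, adjusted p = 0.0892). The heat shock arrays were all above the sham arrays. Without nsEP replicate 3 the adjusted p was 0.0237, and with poly-A scaling the ratio was -0.44. TRA2A read 12.31, 12.52 and 12.36 in heat shock, against 11.67, 12.37 and 11.97 in sham, and the groups overlapped (log2 ratio 0.39, SE 0.21).

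Among the 10 SR proteins measured, heat shock gave SRSF7 0.39, SRSF5 0.39, SRSF11 0.31 and SRSF10 -0.36 over sham, with a median of 0.04. The hnRNP A and B proteins, which bind exonic silencers, had a median of -0.18 over 5 genes, with HNRNPA3 at -0.34 and HNRNPA2B1 at 0.28. HNRNPC, which keeps Alu-derived exons out of mRNA, was at 0.45 and HNRNPD, which binds AU-rich elements in mRNA, at 0.43, while HNRNPDL was at -0.01. HNRNPH1 was at 0.23, the highest of the 3 F and H proteins. HNRNPK was at 0.40 and HNRNPL at 0.39, the highest of 5 further hnRNPs, and HNRNPU, which binds chromatin and nuclear RNA, at 0.30, the highest of 3. The brightest probe sets of 6 genes, including HNRNPA1, HNRNPC and HNRNPU, carry the suffix that marks probes able to bind other transcripts, so their values may hold signal of related sequences.

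**Figure D2:**
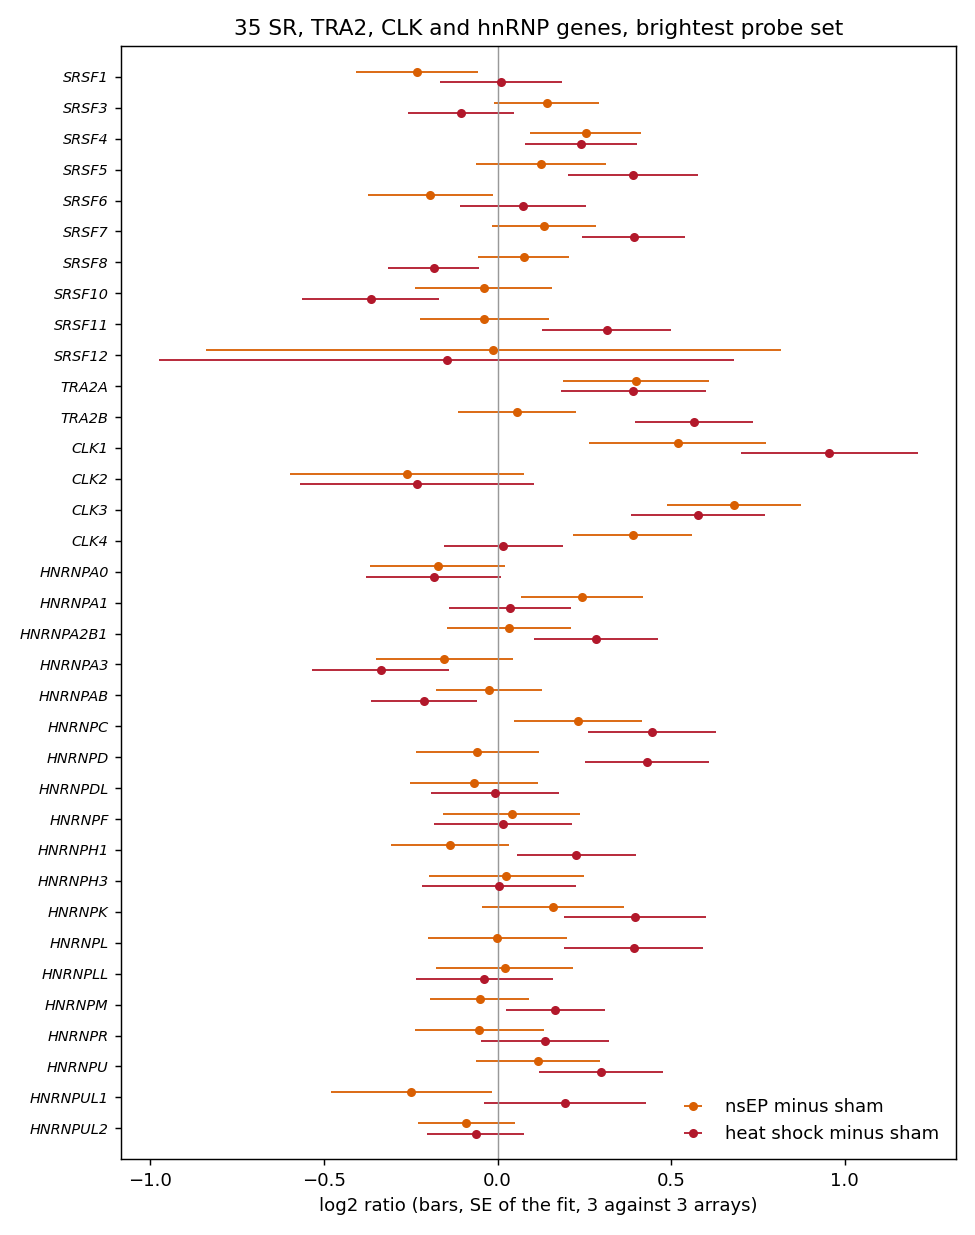
Log2 ratio of the 35 genes at the brightest probe set for nsEP minus sham and heat shock minus sham, with bars of 1 SE from the limma fit of 3 against 3 arrays. Most bars lie within 0.5 of 0, CLK1 and CLK3 lie farthest to the right, and no ratio was called.

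The calls after heat shock lay at the further probe sets of these genes. In all 6 of 97 (6.19%) were called higher than sham and none lower, against 1.47% higher and 1.67% lower of 21316 further probe sets of all genes (3.14% either way). These shares over all genes are not matched on signal. Of the 97, 58 lay in the brightest quartile of all probe sets, against 4377 of 21316 for all genes, and in that quartile 3 of 58 (5.17%) were called, all higher, against 7.45% called either way for all genes (1.78% higher, 5.67% lower). In the third quartile it was 2 of 19 (10.5%), against 3.58% either way for all genes (2% higher, 1.58% lower). In the second it was 1 of 13 (7.69%), against 1.69% either way (1.47% higher, 0.219% lower). The called probe sets belonged to TRA2B, HNRNPA1, SRSF1, TRA2A, SRSF7 and SRSF3, and the brightest probe set of none of these 6 genes was called. None of the 6 probe sets was called with poly-A scaling or in the methods' t-test after adjustment. Which part of a transcript each probe set reads is not given in the sources used here. The difference between a further probe set and the brightest probe set of its gene was therefore tested on each array, a measure that a constant shift of an array cannot move. The further probe set is the dimmer by definition, and heat shock ratios were higher at dimmer probe sets over all genes (below). The part of signal in this measure was not tested. In heat shock against sham 5 of 97 differences (5.15%), in 4 genes, were called, all with the further probe set higher, against 0.615% higher and 0.267% lower over all genes. Within the brightest quartile it was 2 of 58 (3.45%), against 0.617% higher and 0.64% lower for all genes.

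HNRNPA1, a splicing repressor that also shuttles mRNA to the cytoplasm, was the 1 gene with a called within-gene difference in both comparisons with heat shock. Its probe set 222040_at read 9.63, 10.10 and 9.80 in nsEP, 11.34, 11.49 and 11.95 in heat shock, and 10.39, 10.45 and 10.57 in sham. The 3 groups did not overlap, with heat shock highest and nsEP lowest. The log2 ratio of heat shock over sham was 1.12 (SE 0.18, adjusted p = 0.0042), and that of nsEP over sham, -0.63, was not called (SE 0.18, adjusted p = 0.433). The brightest probe set of HNRNPA1, a gene with many processed pseudogenes, read 13.46, 13.76 and 14.10 in nsEP, 13.49, 13.50 and 13.71 in heat shock, and 13.50, 13.45 and 13.65 in sham. It overlapped between all groups, and the further probe set moved 1.09 more than it after heat shock (SE 0.20, adjusted p = 0.0354). The ratio itself was called without each of the 9 arrays in turn, while the within-gene call held without any nsEP array and was lost without any heat shock or sham array (adjusted p up to 0.142).

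TRA2B had the largest called ratio after heat shock among these probe sets with signals above the median of all probe sets. Its probe set 210180_s_at read 10.05, 9.87 and 9.66 in nsEP, 11.19, 10.53 and 11.58 in heat shock, and 8.82, 8.63 and 9.67 in sham. The heat shock arrays were above all others, and the nsEP arrays lay between the groups apart from an overlap with sham replicate 3. The log2 ratio of heat shock over sham was 2.06 or 4.16-fold (SE 0.29, adjusted p = 0.0016). The heat shock ratio was called without each of the 9 arrays in turn. The call was lost with poly-A scaling (ratio 1.05, adjusted p = 0.163) and in the methods' t-test (adjusted p = 0.150). It exceeded the ratio of the brightest probe set by 1.49 (SE 0.30, adjusted p = 0.0458), a call that was kept only without nsEP replicate 3 when arrays were left out in turn (adjusted p up to 0.186). Probe set 239447_at of TRA2B read 7.83, 8.34 and 8.15 in heat shock, against 7.13, 7.58 and 6.96 in sham, and was not called (log2 ratio 0.89, SE 0.28).

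SRSF1, the first SR protein described, had 8 probe sets. Its probe set 239384_at read 7.57, 7.06 and 6.85 in nsEP, 8.49, 8.39 and 9.03 in heat shock, and 7.10, 7.21 and 7.32 in sham. The heat shock arrays were above all others (log2 ratio to sham 1.42 or 2.68-fold, SE 0.27, adjusted p = 0.0111), and the nsEP arrays lay across the sham values. The brightest probe set of SRSF1 read 13.90, 13.69 and 14.34 in nsEP, 14.24, 14.17 and 14.24 in heat shock, and 14.27, 14.13 and 14.23 in sham, and the further probe set moved 1.41 more after heat shock (SE 0.29, adjusted p = 0.0496). Without heat shock replicate 3 the ratio lost its call (adjusted p = 0.0614), and the within-gene call was kept without nsEP replicate 1 or 3 alone.

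SRSF3, the smallest SR protein, had 2 such probe sets, both with mean signals under the median of all probe sets and named here after their values were seen. Probe set 237485_at read 6.19, 5.46 and 5.56 in nsEP, 6.29, 6.72 and 6.16 in heat shock, and 4.62, 5.07 and 3.71 in sham. It moved 2.03 more than the brightest probe set after heat shock (SE 0.33, adjusted p = 0.0240). Both exposures lay above every sham array. Probe set 232392_at read 6.08, 6.47 and 5.44 in nsEP, 6.45, 6.20 and 6.24 in heat shock, and 4.31, 2.89 and 4.73 in sham, and it moved 2.42 more (SE 0.46, adjusted p = 0.0378). The sham values were the scattered ones in both. After nsEP the same differences to the brightest probe set were 1.13 and 1.88 over sham, not called in the same test (adjusted p = 0.569 and 0.404). In nsEP against heat shock they were -0.90 and -0.55, also not called, so neither movement is shown to be particular to heat shock. With arrays left out in turn, the first call was kept without any nsEP array or sham replicate 2 and lost without the other 5 (adjusted p up to 0.0991). The second was kept without nsEP replicate 2 or 3 or sham replicate 3 and lost without the other 6 (adjusted p up to 0.151).

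**Figure D3:**
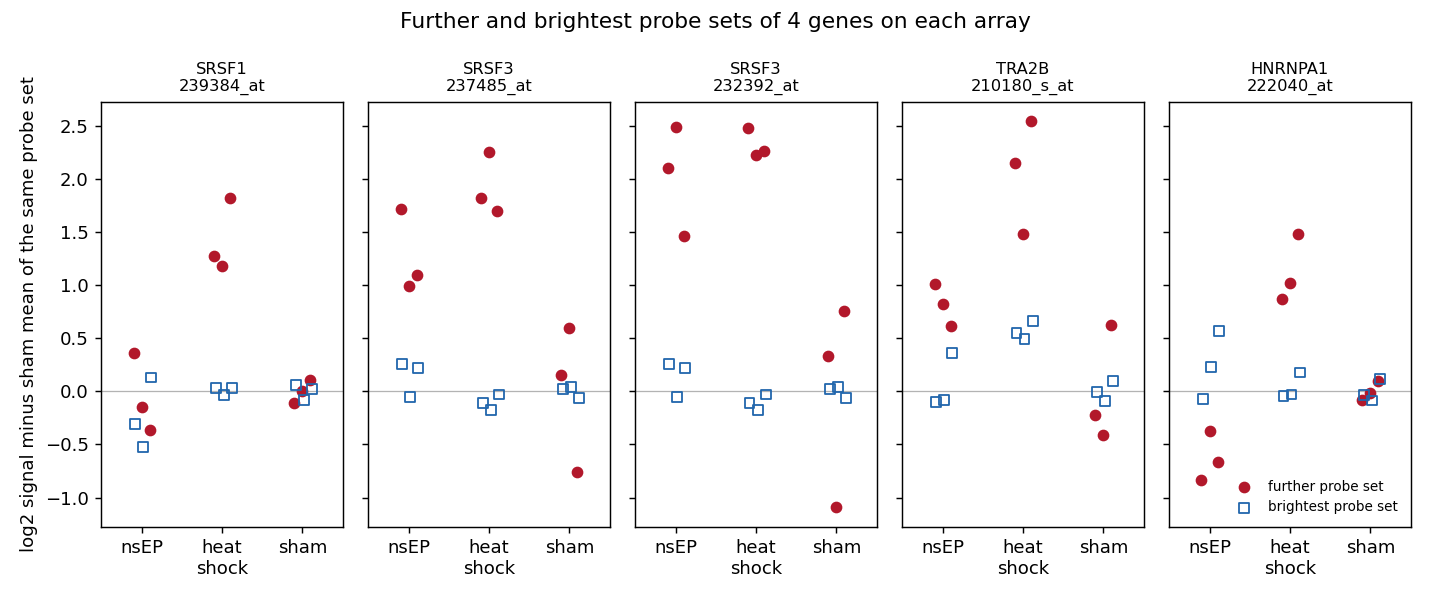
Log2 signal minus the sham mean of the same probe set on every array for the 5 further probe sets that moved unequally with their gene after heat shock (filled circles) and the brightest probe set of the same gene (open squares), in the order nsEP, heat shock, sham. In heat shock the circles average 1.12 (HNRNPA1) to 2.32 (SRSF3 232392_at) above sham, the squares at most 0.57 (TRA2B), and HNRNPA1 alone has circles below 0 on all 3 nsEP arrays.

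Further called ratios came without a called within-gene difference. TRA2A 229574_at read 9.35, 8.82 and 9.48 in heat shock, against 8.24, 7.67 and 8.16 in sham (log2 ratio 1.19, SE 0.27, adjusted p = 0.0285). SRSF7 213649_at, of an SR protein that also promotes mRNA export, read 10.52, 10.82 and 10.95 in heat shock, against 9.48, 9.79 and 9.89 in sham (log2 ratio 1.04, SE 0.25, adjusted p = 0.0360). Neither overlapped sham. With arrays left out in turn, TRA2A stayed called without any nsEP array or heat shock replicate 2, SRSF7 without any nsEP array, and SRSF3 232392_at (log2 ratio 2.32, adjusted p = 0.0428) without nsEP replicate 3 or sham replicate 3, and each lost its call without the other arrays (adjusted p up to 0.121, 0.131 and 0.140).

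Heat shock ratios were higher at dimmer probe sets, over all genes as in this group. The further probe sets of these genes had a median log2 ratio of 0.64 in the dimmest quartile of all probe sets (7 probe sets), 0.87 in the second (13), 0.43 in the third (19) and 0.01 in the brightest (58), against 0.44, 0.31, 0.07 and -0.04 for further probe sets of all genes. The 28S ribosomal RNA control was also higher on every heat shock array than on every other array. It was higher on every nsEP array than on every sham array as well. Its part in the ratios of either exposure was not tested.

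**Figure D4:**
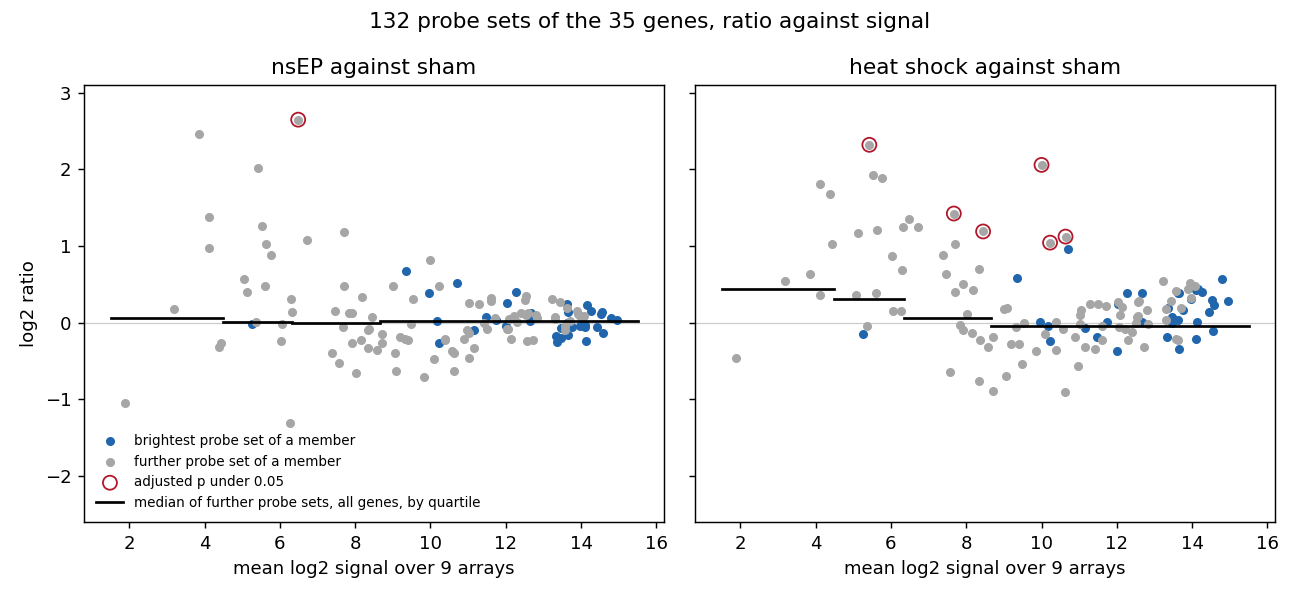
Log2 ratio against mean log2 signal for the 132 probe sets of the 35 genes, for nsEP against sham and heat shock against sham (blue, brightest probe set; grey, further probe sets; circled, called; black lines, medians of further probe sets of all genes by signal quartile). After heat shock 6 grey points are circled, at ratios of 1.04 to 2.32, and after nsEP 1 is, at 2.65.

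After nsEP none of the 35 genes was called at the brightest probe set, against 0.0607% of all genes, and 2 (CLK3 and CLK4) had an unadjusted p under 0.05 (5.71%, close to the 5.4% of all genes), while the methods' t-test also called none after adjustment. The median log2 ratio was 0.02, with -0.02 over all genes. The nsEP arrays did not overlap sham for 3 genes (8.57%, all genes 9.96%), which were CLK3, CLK4 and SRSF4, all higher. Apart from the CLK kinases, TRA2A had the highest ratio (0.40, SE 0.21), with 12.47, 12.73 and 12.01 in nsEP, which overlapped the sham values above. TRA2B read 14.49, 14.51 and 14.95 in nsEP, also across its sham values (ratio 0.06). The 95% interval stayed within a factor of 2 for 32 of 35 genes, with SRSF12, CLK1 and CLK3 as the exceptions.

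Of the further probe sets 1 of 97 was called after nsEP (0.0798% over all genes), 236948_x_at of SRSF11, an SR-related protein. It read 7.27, 8.44 and 7.68 in nsEP, 6.05, 6.69 and 6.79 in heat shock, and 5.06, 5.10 and 5.29 in sham. The 3 groups did not overlap, and the log2 ratio of nsEP over sham was 2.65 or 6.27-fold (SE 0.40, adjusted p = 0.0365). The brightest probe set of SRSF11 read 14.03, 13.67 and 13.84 in nsEP, against 14.09, 14.05 and 13.52 in sham. The difference between both was 2.68 and was not called (SE 0.37, adjusted p = 0.0750), nor was any within-gene difference of any gene after nsEP with limma. An unadjusted p under 0.05 was found for 17 of the 97 differences (17.5%), against 6.66% over all genes. It was 20.6% against 13% in heat shock against sham, and 18.6% against 12.7% in nsEP against heat shock. These shares are not matched on signal, and differences of 1 gene use the same brightest probe set, so they are not independent. The suffix of 236948_x_at marks probes that can bind other transcripts, and its call was kept without nsEP replicate 1 alone when arrays were left out in turn (adjusted p up to 0.253). The paper lists HNRNPD as lower after nsEP in both its cell lines, by a log ratio and p-value cut. Here no probe set of HNRNPD was called after nsEP, and its brightest had a log2 ratio of -0.06. The lowest nsEP ratio among the 97 was -1.31, which is also the paper's Jurkat value for HNRNPD.

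Set directly against heat shock, nsEP again gave no call at the brightest probe set, where 5.99% of all genes were called and 3 of the 35 had an unadjusted p under 0.05 (8.57%, all genes 20.9%). Their median was -0.06 with -0.14 over all genes, and 6 genes did not overlap (17.1%, all genes 25.1%). TRA2B was lower in nsEP on every array (log2 ratio -0.51, SE 0.17, adjusted p = 0.117). Without nsEP replicate 3, TRA2B, HNRNPL and HNRNPUL1 were called lower in nsEP than in heat shock. Among further probe sets 8 of 97 (8.25%) were called, all lower in nsEP, with 2.02% lower over all genes (3.88% either way), again not matched on signal. In the brightest quartile 4 of 58 (6.9%) were called, against 8.84% either way for all genes (2.7% lower, 6.15% higher). In the third quartile it was 4 of 19 (21.1%), against 4.99% either way for all genes (3.14% lower, 1.85% higher). The 8 were HNRNPA1 222040_at (-1.75, SE 0.18, adjusted p = 0.0002), SRSF1 239384_at (-1.47), TRA2B 239447_at (-1.28) and 210180_s_at (-1.24), TRA2A 229574_at (-1.11), SRSF4 242837_at (-0.82), HNRNPM 1555843_at (-0.80) and SRSF11 200685_at (-0.62). With arrays left out in turn these calls were kept in 9 of 9 fits for HNRNPA1, 8 for SRSF1 (lost without heat shock replicate 3, adjusted p = 0.0507), 7 and 5 for the TRA2B probe sets, 4 for TRA2A, 6 for SRSF4, 1 for HNRNPM and 2 for SRSF11.

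HNRNPA1 was also the gene with a called within-gene difference between the exposures, 1 of 97 probe sets (0.854% in that direction over all genes). Its further probe set fell by 1.96 relative to its brightest probe set in nsEP against heat shock (SE 0.20, adjusted p = 0.0013). The call held without each array in turn and in every alternative fit of the within-gene difference, with an adjusted p of at most 0.0416. SRSF4 242837_at read 8.81, 8.55 and 8.46 in nsEP, 9.33, 9.26 and 9.70 in heat shock, and 9.23, 9.18 and 9.32 in sham. Its nsEP arrays were below all others. SRSF11 200685_at also had its nsEP arrays below all others, with 10.90, 10.52 and 10.61 in nsEP, 11.33, 11.21 and 11.35 in heat shock, and 11.19, 11.26 and 10.95 in sham. HNRNPM 1555843_at differed in that heat shock stood apart, with 8.01, 8.16 and 7.98 in nsEP, 9.02, 8.74 and 8.78 in heat shock, and 7.89, 8.20 and 8.34 in sham. These last 3 ratios turned positive with poly-A scaling.

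In 4 lists of other splicing machinery 6 of 102 genes (5.88%) were called at the brightest probe set between heat shock and sham, close to the 5.71% of all genes. Of 21 SR protein kinases, transport factors and other proteins with an RS domain, 1 was higher and 2 were lower in heat shock than in sham. NKTR, an RS-domain cyclophilin, was at 0.93 (adjusted p = 0.0199), DYRK1A, a kinase that phosphorylates splicing factors, at -0.66 (adjusted p = 0.0223) and SRPK2, a cytoplasmic SR protein kinase, at -0.50 (adjusted p = 0.0432). Of 29 other splicing regulators PTBP3 was lower (-0.78, adjusted p = 0.0073), and of 40 core spliceosome genes PRPF4 was (-0.58, adjusted p = 0.0356). The core spliceosome had a median of 0.18. Of 12 genes of nonsense-mediated decay and the exon junction complex PNRC2, which links UPF1 to decapping, was lower (-1.15, adjusted p = 0.0009). None of these 4 lists had a call between nsEP and sham with limma, and 1, 1, 2 and 0 of their genes had an unadjusted p under 0.05.

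Between nsEP and heat shock the 4 lists had 6 of 102 genes higher in nsEP (5.88%, all genes 3.83%) and 3 lower (2.94%, all genes 2.16%). PNRC2 (1.28), DYRK1A (0.88), PTBP3 (0.59) and SRPK2 (0.48) were higher, as were MBNL2 (0.81), a muscleblind splicing regulator, and CWC22 (0.72), which loads the exon junction complex. NKTR (-1.16), U2AF2 (-0.93), which binds the polypyrimidine tract, and SNRNP200 (-0.86), a helicase of the U5 particle, were lower. All comparisons with sham rest on the same 3 sham arrays, and each array measured the RNA of a whole culture, so that a change in every cell and a change in some cells cannot be told apart. By the paper's viability assay most pulsed Jurkat cells were no longer viable at 4 h, and the part of this in the nsEP values was not tested.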

How the data were processed

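The deposited values were log2 MAS5 signals of 54675 probe sets on 9 human expression arrays, which the authors made with the Affymetrix MAS 5.0 algorithm and a log2 transformation, per the labels and the study's methods. Detection calls were not used here, and dim probe sets have wide scatter on this scale. Groups came from the sample titles. After 62 control probe sets were set aside, 41091 of 54613 had 1 gene symbol in the platform annotation, 1801 had several and named no gene, and 11721 were not listed.

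limma 3.58.1 in R 4.3.3 was fitted to all 9 arrays with 1 mean per group and a variance trend, two-sided, with Benjamini-Hochberg adjustment over 54613 probe sets and a threshold of 0.05. The within-gene test applied the same model to the log2 signal of a further probe set minus that of the brightest probe set of its gene, adjusted over 21316 further probe sets. Scripts were tested on simulated data. An exact permutation test of 3 against 3 arrays cannot go below p = 0.1, and the number of arrays limits the precision.

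The list of members, the other gene lists and the tests were chosen with earlier results of these data known. By rule, values on every array are given for members called at the brightest probe set, the CLK and TRA2 genes and called within-gene differences whose mean signal reached the median of all probe sets. Genes of the other lists are given by their log2 ratio. Array values of SRSF3 and of other called further probe sets were added after they were seen. Alternatives were another offset, normalization, filter, variance model, choice of arrays, replicate block, probe set rule and the methods' t-test.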

Additional observations from a re-analysis of the deposited data

How the results depend on the processing

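Counts of called genes and probe sets are given here where they moved by over 1.5 times, with the value as reported first. For heat shock against sham, the 35 genes had 0 higher, with 1 under quantile normalization (CLK1), 2 without dim probe sets and 2 with only the 6 arrays compared (CLK1 and TRA2B in both), 1 with the brightest probe set that lacks the cross-binding suffix (HNRNPA1), 4 with the median of all probe sets of a gene (CLK3, HNRNPA1, HNRNPC and TRA2B) and 0 to 2 without single arrays. They had 0 lower, with 1 under quantile normalization (HNRNPAB) and 0 in every fit without a single array. The HNRNPA1 probe set without the suffix was 222040_at, the further probe set already called, both here and against heat shock below. Its call under that rule is therefore no separate support, and the median over the probe sets of HNRNPA1 draws on it too. The median ratio of the 35 genes, 0.14, was -0.0874 under quantile normalization, -0.17 with centring of each array on its median, -0.87 with poly-A scaling and 0.10 to 0.20 without single arrays. These scalings lowered all probe sets, by 0.31 with centring and 1.01 with poly-A scaling (log2). The 6 further probe sets higher were 3 with centring, 0 with poly-A scaling, 1 without the variance trend, 0 in the methods' t-test after adjustment, 2 at the stated thresholds of that test and 2 to 8 without single arrays. The 0 lower were 4 with centring, 4 with poly-A scaling, 1 without dim probe sets, 1 with 6 arrays, 1 with the replicate block and 0 to 1 without single arrays. The 5 within-gene differences were 3 without dim probe sets, 0 without the variance trend, 1 with the replicate block and 0 to 6 without single arrays.

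For nsEP against heat shock, 0 genes were higher, with 3 under centring (CLK4, SRSF3 and SRSF8) and 0 without any single array, and 0 lower, with 1 each without dim probe sets (TRA2B), with probe sets lacking the suffix and with the median of probe sets (HNRNPA1 in both), and 0 to 3 without single arrays. The median of -0.06 was 0.26 with centring, 0.87 with poly-A scaling and -0.18 to -0.0603 without single arrays. Further probe sets had 0 higher, with 1 under quantile normalization, 4 with centring, 1 without dim probe sets and 0 to 4 without single arrays. The 8 lower were 2 with centring, 0 with poly-A scaling, 3 without the trend, 4 with 6 arrays, 0 in the t-test either way and 1 to 7 without single arrays. The 1 within-gene difference was 2 with 32 signal units added, 2 under quantile normalization, 3 without dim probe sets, 2 with the replicate block and 1 to 5 without single arrays. With poly-A scaling SRSF4 242837_at reversed to 0.11, SRSF11 200685_at to 0.31 and HNRNPM 1555843_at to 0.14.

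For nsEP against sham, 0 genes were higher and 0 lower in every setting, with a median of -0.05 to 0.10 without single arrays. The 1 further probe set higher was 0 with 32 units added, centring, poly-A scaling, no trend, 6 arrays, the replicate block and the adjusted t-test, 2 at the stated thresholds of the t-test and 0 to 1 without single arrays, and 0 were lower in every setting. The 0 within-gene differences were 1 without dim probe sets and 0 to 1 without single arrays. The cause of these changes was not tested. Samples of the same number in different groups deviated together with correlations of -0.07 to 0.05, and samples of different numbers with -0.08 to 0.08. These values are over all probe sets, dim ones included, and cannot settle whether the numbers pair the samples. The replicate block moved no count by over 1.5 times beyond those given above. A further limit is that dim probe sets have wide scatter, and SRSF12 and both further probe sets of SRSF3 described here rest on such values.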
